A study of Homo sapiens with 12 samples.

Results

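The genes described are 10 members of the transforming growth factor beta (TGF-beta) superfamily: the TGF-beta ligands TGFB1, TGFB2 and TGFB3, the activin A subunit INHBA, the bone morphogenetic protein BMP4, the distant ligand GDF15, the antagonists FST (follistatin) and GREM1 (gremlin 1), and the TGF-beta receptors TGFBR1 and TGFBR2. They were taken by name, through every array probe annotated to 1 of these genes alone, which gave 16 of the 54359 probes of the array. Of these, 15 probes of 9 genes had enough values to test, and the single GDF15 probe had no value on any of the 12 arrays. The cells were T-HESC, stromal cells of human endometrium made immortal by telomerase, which went 24 h without serum before 48 h of treatment. Treatment was with TNFα (5 ng/ml), with IL1β, the cytokine interleukin 1 beta (1 ng/ml), with the pair at those doses (TNFα+IL1β), or with vehicle, and each group had 3 single-colour arrays. The 3 replicates of a group were cells of passage 13, passage 28 and passage 15 of this 1 line, so they carry no variation between donors. The aim stated for the study was to find genes whose expression in endometrial stromal cells differs with these cytokines.

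Ligands of this family are secreted as dimers and signal through pairs of type I and type II receptor kinases, which phosphorylate SMAD proteins that then enter the nucleus. TGF-beta and activin signal mainly through SMAD2 and SMAD3, and BMPs through SMAD1, SMAD5 and SMAD9. Follistatin binds activin and gremlin binds BMPs, and both keep their ligand from its receptors. In the endometrium the family is known for roles in stromal decidualization, in tissue repair after menstruation and in implantation, and activin A is a well-known product of inflamed tissue.

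Values are log2 scaled intensities, on which 0 is close to the median probe of an array and 1 unit is a doubling. In the fit of all 53671 testable probes with limma, a probe was called at a Benjamini-Hochberg adjusted p under 0.05, and an error after ± is a standard error for a change and an SD for a group mean. The same fit called 25 probes for TNFα, 3 for IL1β and 133 for TNFα+IL1β against vehicle. Vehicle replicate 3, TNFα replicate 3 and IL1β replicate 2 stood apart from the other arrays, with scores of 171, 68.7 and 53.0 on the first principal component, against −84.8 for vehicle replicate 1 and −33.8 to −18.2 for the remaining 8 arrays. Results are therefore also given without these 3 arrays, which leaves 2 arrays each of vehicle, TNFα and IL1β. Vehicle replicate 1, which was kept, had the highest score on the second component (127). Of 10 listed fibroblast genes 9 had a tested probe, with means from 3.06 to 9.03 (COL1A1), and all 9 lay above the median probe. Of 6 listed genes of endometrial stroma, HOXA10 and HOXA11 had no tested probe. The 4 measured (PGR, ESR1, MME and HAND2) had means from 1.03 to 3.61, and all 4 lay above the median probe. So did 3 of 6 measured epithelial genes, with means from −3.22 (CLDN3) to 5.50 (KRT19), 2 of 5 leukocyte genes, from −3.95 (PTPRC) to 2.11 (CD68), 2 of 5 endothelial genes, from −3.74 (KDR) to 3.53 (PECAM1), and 2 of 4 genes of pericytes and smooth muscle, from −1.48 (MYH11) to 1.88 (NOTCH3). The part of other cell types in the results was not tested. Signals of a culture do not tell fewer cells making a transcript from less transcript per cell.

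None of the 15 probes was called in any comparison. For TNFα against vehicle 0 of 15 passed, where limma called 0.0466% of all probes, and the lowest adjusted p was 0.660. For IL1β against vehicle 0 of 15 passed, against 0.00559% of all probes, with a lowest adjusted p of 0.446. For TNFα+IL1β against vehicle 0 of 15 passed, against 0.248% of all probes, with a lowest adjusted p of 0.228. At an unadjusted p under 0.05 there were 1, 1 and 2 of the 15 probes in these comparisons (6.67%, 6.67% and 13.3%), close to the 7.05%, 9.67% and 12.9% of all probes that reached it. For TNFα the arrays of 0 of 15 probes lay wholly above or below the vehicle arrays, against 3.72% above and 6.88% below over all probes, and for IL1β 0 of 15 lay above (3.53% over all probes). The median change of the 9 representative probes (for each gene, its probe with the highest mean) was −0.06 for TNFα, −0.26 for IL1β and 0.00 for TNFα+IL1β, beside −0.05, −0.13 and −0.13 over all probes. A p that misses the threshold does not show that a gene was unchanged, so each gene is given below with its values and the interval of its change.

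**Figure D1:**
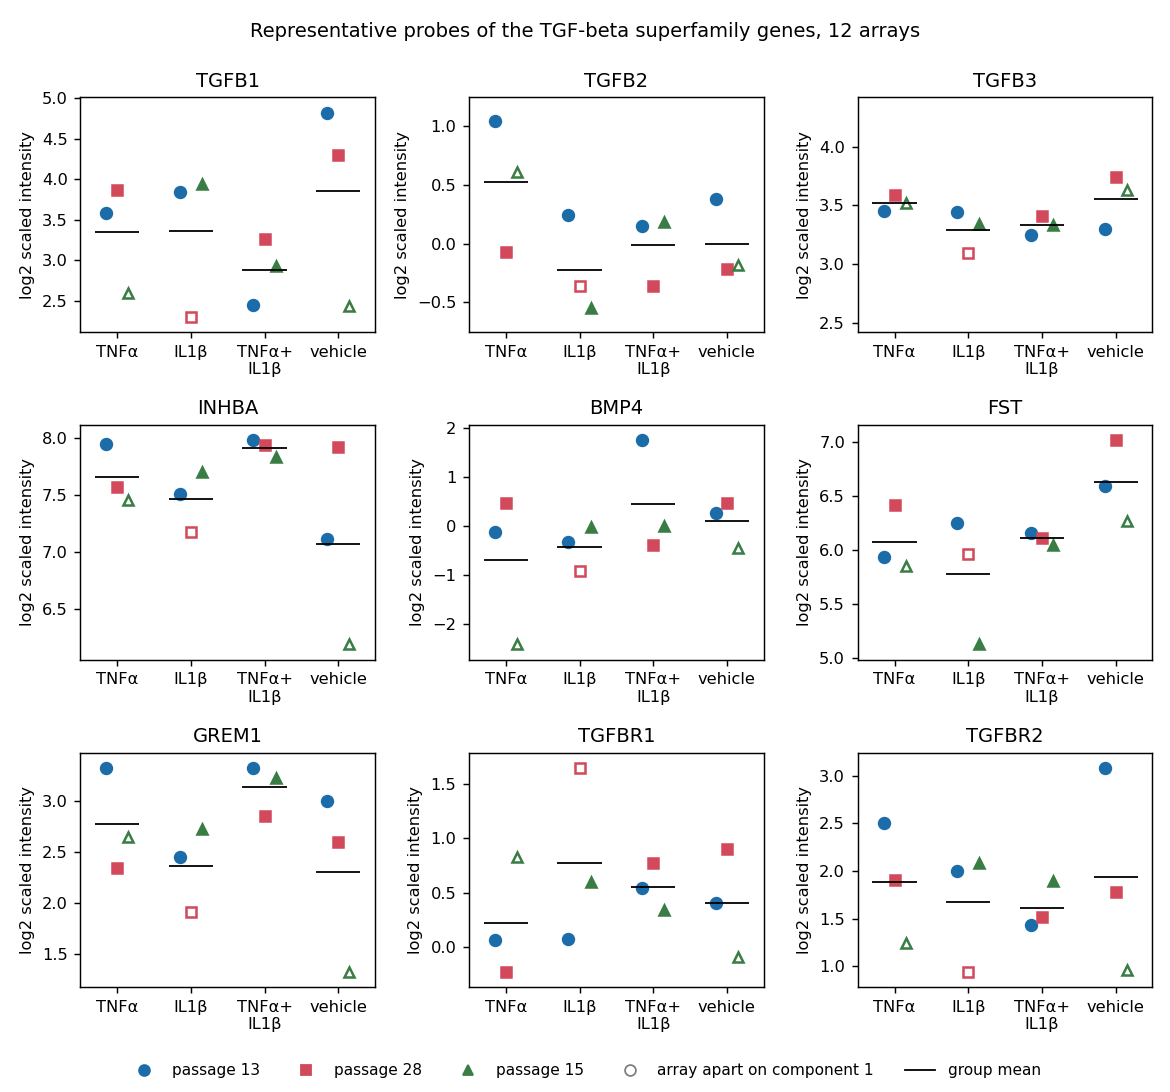
Log2 scaled intensity of the representative probe of each gene on all 12 arrays, by group, with the symbol giving the passage, open symbols the 3 arrays that stood apart on the first principal component, and bars the group means (n = 3). TGFB1, BMP4 and TGFBR2 were low on all 3 open symbols. FST was lower in the 3 TNFα+IL1β arrays (6.04 to 6.16) than in the vehicle arrays (6.27 to 7.01).

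TGFB1, the isoform best known for driving fibrosis and matrix production, stood at 3.59, 3.87 and 2.60 in TNFα arrays, 3.85, 2.31 and 3.94 in IL1β arrays and 2.45, 3.27 and 2.93 in TNFα+IL1β arrays, against 4.82, 4.30 and 2.44 in vehicle arrays (replicates 1, 2 and 3). The groups overlapped, and the lowest value of the TNFα, IL1β and vehicle groups was in each case that of the array that stood apart. The change was −0.50 ± 0.65 with TNFα, −0.49 ± 0.65 with IL1β and −0.97 ± 0.65 with TNFα+IL1β (SE, n = 3 per group; limma adjusted p = 0.949, 0.847 and 0.562). Without the 3 arrays that stood apart, it was −0.83 ± 0.31 with TNFα, −0.67 ± 0.31 with IL1β and −1.68 ± 0.28 with TNFα+IL1β (adjusted p = 0.418, 0.391 and 0.0829). The last of these was the lowest adjusted p of any member under any of the settings tried, and its 95% interval ran from −2.35 to −1.01. That change rests on 2 vehicle arrays. The vehicle array left out held the lowest vehicle value, so leaving it out had to make the change more negative. On the 9 other arrays TGFB1 was at 2.45 to 3.27 with TNFα+IL1β, at 3.59 to 3.94 with 1 cytokine and at 4.30 and 4.82 with vehicle. The higher vehicle value is that of replicate 1, which was kept although its array weight (0.337) was lower than those of the TNFα (0.534) and IL1β (0.498) arrays left out. With that array alone left out, the TGFB1 change with TNFα+IL1β was −0.49 ± 0.67 (adjusted p = 0.751). Within passages the TNFα+IL1β array minus the vehicle array gave −2.38 in passage 13, −1.04 in passage 28 and 0.49 in passage 15, the last against the vehicle array that stood apart. The part of array quality in these values was not tested.

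TGFB2, the isoform most often studied in embryonic and eye tissue, gave values near the median probe. It stood at 1.04, −0.07 and 0.61 in TNFα arrays, against 0.38, −0.22 and −0.18 in vehicle arrays, a change of 0.54 ± 0.33 (SE, n = 3 per group; limma adjusted p = 0.810). The TNFα array was higher than the vehicle array in each passage, although the groups overlapped. With IL1β the change was −0.21 ± 0.33, and with both cytokines the group mean was −0.01 ± 0.30, against −0.01 ± 0.34 with vehicle (SD, n = 3).

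TGFB3, an isoform linked to scarless repair and palate closure, had the smallest SE among the 15 member probes on its representative probe (0.18). That probe averaged 3.52 ± 0.07 with TNFα, 3.29 ± 0.18 with IL1β and 3.33 ± 0.08 with TNFα+IL1β, against 3.56 ± 0.23 with vehicle (SD, n = 3). Its 95% intervals of the fold over vehicle were 0.739 to 1.29 with TNFα, 0.631 to 1.10 with IL1β and 0.649 to 1.13 with TNFα+IL1β. On this probe a doubling or a halving lay outside all 3. A second, dim TGFB3 probe (group means −2.36 to −1.31) gave −1.05 ± 0.57 with TNFα+IL1β (adjusted p = 0.467), and its vehicle arrays alone spread from −2.32 to −0.17.

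INHBA encodes the beta A subunit, of which activin A is the dimer. It has 3 probes, and the 2 brightest gave changes of like size. Probe 409040 stood at 7.95, 7.57 and 7.46 in TNFα arrays, 7.51, 7.18 and 7.70 in IL1β arrays and 7.98, 7.94 and 7.83 in TNFα+IL1β arrays, against 7.11, 7.92 and 6.19 in vehicle arrays. The 3 arrays with both cytokines lay close together, and the vehicle arrays were spread widely, with replicate 2 among the treated arrays. The change was 0.84 ± 0.37 with TNFα+IL1β, or 1.80-fold with a 95% interval of 1.01- to 3.18-fold, and it was not called (limma adjusted p = 0.377). Probe 502110 stood at 7.40, 6.73 and 7.09 in TNFα arrays and 7.32, 7.40 and 7.22 in TNFα+IL1β arrays, against 6.31, 6.95 and 5.81 in vehicle arrays. Here every TNFα+IL1β array was higher than every vehicle array, as for 7.02% of all probes, and the change was 0.96 ± 0.29, or 1.94-fold (1.23 to 3.06; adjusted p = 0.228). For TNFα alone the 2 probes gave 0.59 ± 0.37 and 0.72 ± 0.29 (adjusted p = 0.818 and 0.660), and for IL1β alone 0.39 ± 0.37 and 0.46 ± 0.29 (0.772 and 0.640).

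The third INHBA probe, 26062, was dimmer, with group means of 2.15 to 2.32. It gave −0.17 ± 0.26 with TNFα+IL1β, and it was highest on vehicle replicate 3 (2.93), where the other 2 probes were lowest. Without the 3 arrays that stood apart the changes with TNFα+IL1β were 0.40 ± 0.26 for probe 409040, 0.68 ± 0.27 for probe 502110 and 0.14 ± 0.15 for probe 26062 (adjusted p = 0.400, 0.209 and 0.587). Within passages 13, 28 and 15 probe 409040 differed from vehicle by 0.87, 0.02 and 1.64 with TNFα+IL1β, by 0.84, −0.35 and 1.27 with TNFα and by 0.40, −0.75 and 1.52 with IL1β. Probe 502110 was higher with TNFα+IL1β by 1.00 in passage 13, 0.46 in passage 28 and 1.41 in passage 15. With 1 cytokine alone it too was higher in passages 13 and 15 and lower in passage 28, by −0.21 for TNFα and −0.39 for IL1β.

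FST encodes follistatin, the secreted binder that holds activin away from its receptors. Its bright probe 229090 stood at 5.94, 6.42 and 5.85 in TNFα arrays, 6.25, 5.96 and 5.12 in IL1β arrays and 6.16, 6.11 and 6.04 in TNFα+IL1β arrays, against 6.59, 7.01 and 6.27 in vehicle arrays. All IL1β arrays and all TNFα+IL1β arrays were lower than every vehicle array, as for 9.96% and 14.8% of all probes, and TNFα replicate 2 overlapped with vehicle replicate 3. The change was −0.56 ± 0.31 with TNFα, −0.85 ± 0.31 with IL1β and −0.52 ± 0.31 with TNFα+IL1β (SE, n = 3 per group; limma adjusted p = 0.779, 0.446 and 0.511). For IL1β the 95% interval ran from −1.53 to −0.16. Within passages 13, 28 and 15 the TNFα arrays differed from vehicle by −0.66, −0.59 and −0.42, the IL1β arrays by −0.34, −1.05 and −1.14, and the TNFα+IL1β arrays by −0.44, −0.90 and −0.22. The 3 comparisons share the vehicle arrays and are not independent of each other.

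A second FST probe, 225038, dimmer and annotated to 1 of the 2 listed FST transcripts, gave −0.21 ± 0.34 with TNFα and −0.37 ± 0.34 with IL1β. With TNFα+IL1β it gave 0.24 ± 0.34 (adjusted p = 0.821), the opposite sign to the bright probe, and its vehicle arrays stood at 2.33, 2.40 and 1.22. Without the 3 arrays that stood apart both probes were on the same side, at −0.70 ± 0.35 and −0.14 ± 0.27. For IL1β alone they were then −1.12 ± 0.38 and −0.81 ± 0.29 (adjusted p = 0.332 and 0.340).

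**Figure D2:**
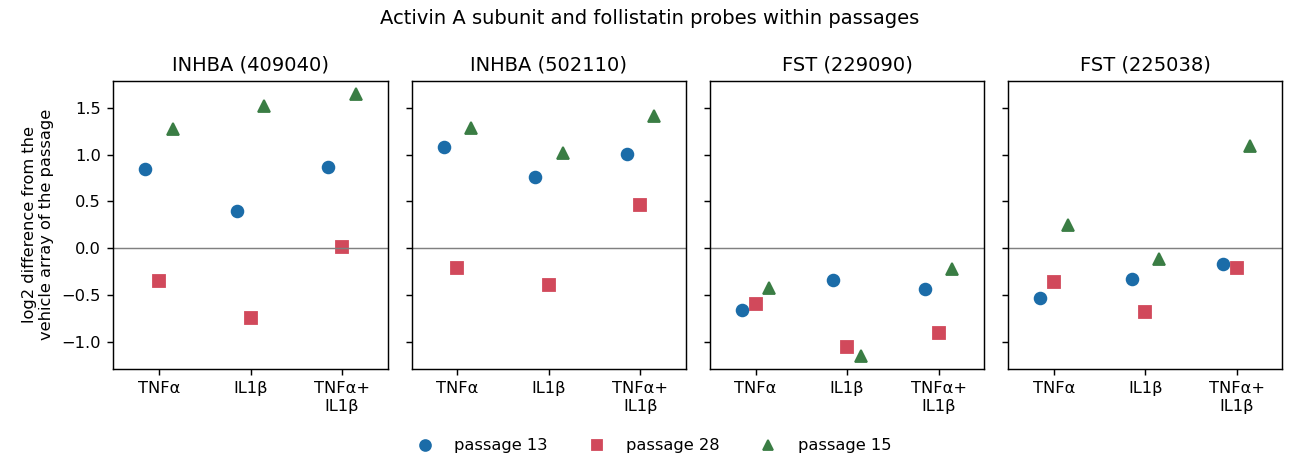
Log2 difference of each cytokine array from the vehicle array of the same passage, for the 2 bright INHBA probes and both FST probes. Points of FST probe 229090 lie between −1.14 and −0.22, and INHBA points of passage 28 lie below those of passages 13 and 15 in every panel position.

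The start regions of INHBA and FST are shown because these were the 2 genes with the lowest p among the members, a choice made after their values were seen. They are RefSeq windows of build GRCh38.p14, from 250 bases before to 50 bases after an annotated start, with motif matches in capitals.
FST, chr5:53480379-53480678, plus strand: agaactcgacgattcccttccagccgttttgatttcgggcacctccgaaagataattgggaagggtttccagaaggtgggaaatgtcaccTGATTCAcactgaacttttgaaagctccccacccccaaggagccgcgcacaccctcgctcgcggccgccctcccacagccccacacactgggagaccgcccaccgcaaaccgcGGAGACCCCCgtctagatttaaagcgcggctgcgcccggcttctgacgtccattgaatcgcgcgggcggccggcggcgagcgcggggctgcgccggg
INHBA, chr7:41703041-41703340, minus strand: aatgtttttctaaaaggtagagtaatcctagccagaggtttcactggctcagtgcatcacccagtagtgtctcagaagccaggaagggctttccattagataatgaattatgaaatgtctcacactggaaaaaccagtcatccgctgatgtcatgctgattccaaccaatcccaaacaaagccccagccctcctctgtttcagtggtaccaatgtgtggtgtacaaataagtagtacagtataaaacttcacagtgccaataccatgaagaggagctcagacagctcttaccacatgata
In the FST window the capitals are an AP-1 match (TGANTCA) 160 bases before the start and a match to the NF-kB consensus, on the opposite strand, 47 bases before it. The INHBA window held neither, nor the cAMP response element TGACGTCA. Both strands were searched. Over the 22 windows of the 10 genes, some of which overlap, 7 held the NF-kB consensus, 2 the AP-1 letters and 0 the cAMP element, against 11.3%, 7.71% and 1.85% of 35116 windows of all genes. The 7 NF-kB windows belonged to 5 genes. A match describes letters only and is not evidence of binding.

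BMP4, a ligand of bone and embryonic patterning that is also made by endometrial stroma, was the least precisely measured. It stood at −0.13, 0.47 and −2.42 in TNFα arrays, −0.33, −0.92 and −0.01 in IL1β arrays and 1.75, −0.39 and −0.01 in TNFα+IL1β arrays, against 0.27, 0.47 and −0.45 in vehicle arrays. BMP4 was lower on all 3 arrays that stood apart (−2.42 to −0.45) than on the 9 others (−0.39 to 1.75), whatever the treatment. Without these 3 arrays the changes were −0.20 ± 0.67 with TNFα, −0.54 ± 0.67 with IL1β and 0.08 ± 0.61 with TNFα+IL1β. With all 12 arrays they were −0.79, −0.52 and 0.35, each ± 0.75 (SE), and none was called. The 95% interval of the fold over vehicle with TNFα+IL1β ran from 0.404 to 4.03, the widest of the representative probes.

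GREM1, the secreted BMP antagonist gremlin 1, stood at 3.32, 2.35 and 2.65 in TNFα arrays, 2.46, 1.91 and 2.73 in IL1β arrays and 3.33, 2.86 and 3.22 in TNFα+IL1β arrays, against 3.00, 2.60 and 1.33 in vehicle arrays. The change with TNFα+IL1β was 0.83 ± 0.43 (SE, n = 3 per group; limma adjusted p = 0.452). It rested in part on the low vehicle replicate 3: within passages the differences were 0.32, 0.26 and 1.89 in passages 13, 28 and 15, and without the 3 arrays that stood apart the change was 0.34 ± 0.32. With both cytokines every array was higher than every IL1β array, as for 8.09% of all probes, with a change of 0.77 ± 0.43 that was not called.

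TGFBR1, the type I receptor kinase of TGF-beta, stood at 0.06, −0.23 and 0.83 in TNFα arrays, 0.07, 1.65 and 0.60 in IL1β arrays and 0.54, 0.77 and 0.34 in TNFα+IL1β arrays, against 0.41, 0.91 and −0.09 in vehicle arrays. All groups overlapped, and the changes were −0.19, 0.37 and 0.14, each ± 0.43 (SE, n = 3 per group). A second probe gave −0.20, 0.12 and 0.33, each ± 0.37. The highest value of the representative probe (1.65) was on IL1β replicate 2, which stood apart, and without the 3 such arrays the change with TNFα was −0.74 ± 0.28 (limma adjusted p = 0.421).

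TGFBR2, the type II receptor that binds TGF-beta first, stood at 2.51, 1.90 and 1.25 in TNFα arrays, 2.00, 0.94 and 2.08 in IL1β arrays and 1.43, 1.51 and 1.90 in TNFα+IL1β arrays, against 3.08, 1.78 and 0.96 in vehicle arrays. All 9 other arrays were higher than the 3 arrays that stood apart (0.94 to 1.25), whatever the treatment. The changes were −0.06, −0.27 and −0.33, each ± 0.53. Without the 3 arrays TNFα+IL1β gave −0.82 ± 0.40 on this probe and −0.51 ± 0.41 on the second probe (limma adjusted p = 0.279 and 0.498).

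**Figure D3:**
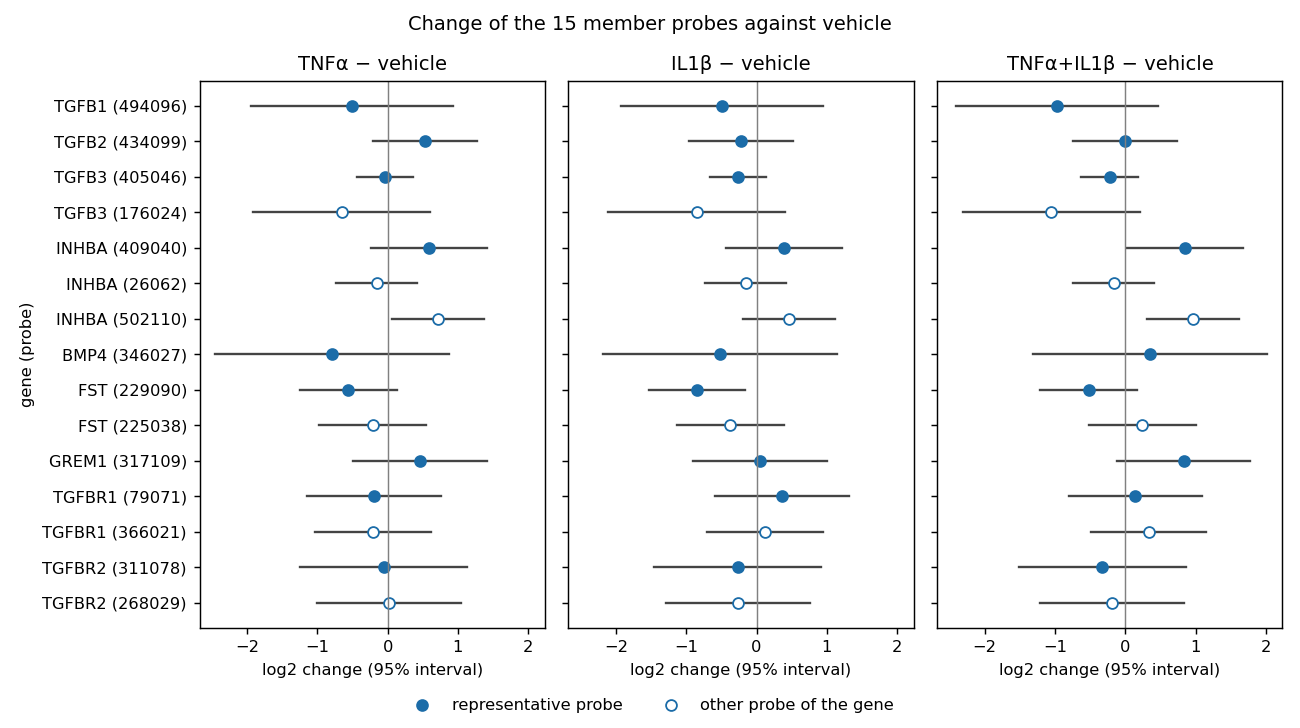
Log2 change of the 15 probes against vehicle for TNFα, IL1β and TNFα+IL1β, with 95% intervals from limma (n = 3 arrays per group), filled points marking the representative probe of a gene. TGFB3 probe 405046 has the narrowest intervals and BMP4 the widest, and no probe was called.

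Adding the second cytokine was compared next. For TNFα+IL1β against TNFα 0 of 15 probes passed (0.00186% of all probes did) and 0 of 15 had an unadjusted p under 0.05 (5.08% of all probes). For TNFα+IL1β against IL1β the counts were also 0 and 0 (0% and 4.37% of all probes). The largest changes of representative probes were those of BMP4, at 1.14 ± 0.75 over TNFα and 0.87 ± 0.75 over IL1β (SE, n = 3 per group; limma adjusted p = 0.981 and 1.00). TGFB2 was lower with both cytokines than with TNFα alone by −0.54 ± 0.33 (adjusted p = 0.981). Against TNFα the arrays did not overlap for FST probe 225038, which was higher (as 6.5% of all probes were), and for TGFB3 probe 405046, which was lower (as 14.7% were). Every TNFα+IL1β array was higher than every IL1β array for 4 of 15 probes, the 2 bright INHBA probes, FST probe 225038 and GREM1, where 8.09% of all probes did so and none of the 4 was called, and lower for 0 of 15 (6.7% of all probes). The interaction of the 2 cytokines was called for 0 of 15 probes and for 0% of all probes (0 of 15 and 3.59% at an unadjusted p under 0.05). FST had the lowest p, with 0.88 ± 0.44 on probe 229090 (adjusted p = 1.00), a value above 0 meaning a smaller decrease with both cytokines than the sum of the 2 single changes.

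Other genes of the pathway were taken from 7 lists with 101 genes, 91 of which had a tested probe. None was called in any of the 3 comparisons with vehicle. At an unadjusted p under 0.05 there were 4 of 91 for TNFα (4.40%, against 7.05% of all probes), 6 for IL1β (6.59%, against 9.67%) and 12 for TNFα+IL1β (13.2%, against 12.9%). BAMBI, a pseudoreceptor that lacks a kinase and dampens TGF-beta signalling, was the furthest from vehicle of these 91 genes with TNFα+IL1β. It stood at 2.63, 2.47 and 1.64 in TNFα arrays, 1.79, 1.08 and 1.17 in IL1β arrays and 3.79, 2.38 and 3.16 in TNFα+IL1β arrays, against 1.36, 1.34 and 0.12 in vehicle arrays. Every TNFα and TNFα+IL1β array was higher than every vehicle array, as for 3.72% and 7.02% of all probes, with changes of 1.31 ± 0.46 and 2.17 ± 0.46 (limma adjusted p = 0.583 and 0.115). SMAD9, a BMP-activated SMAD on a dim probe, stood at −1.16, −0.75 and −1.98 in TNFα arrays, −0.69, −0.43 and −1.19 in IL1β arrays and −1.38, −1.04 and −1.43 in TNFα+IL1β arrays, against 1.02, 0.30 and 0.22 in vehicle arrays. Its TNFα, IL1β and TNFα+IL1β arrays each lay wholly below the vehicle arrays they share, as 6.88%, 9.96% and 14.8% of all probes did, and the changes were −1.81, −1.28 and −1.80, each ± 0.35 (adjusted p = 0.180, 0.431 and 0.0887).

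Among other extracellular antagonists 0 of 14 passed. The BMP antagonist NOG (noggin) gave −1.05 ± 0.29 with TNFα+IL1β (SE, n = 3 per group; limma adjusted p = 0.197) and CHRD (chordin) gave −0.71 ± 0.18 with IL1β (0.419), while a second, dim CHRD probe gave −0.03 ± 0.24. Among BMP response genes 0 of 9 passed, with a median of 0.28 with TNFα+IL1β that was above the −0.13 of all probes, and the lowest p was that of BAMBI, which 2 lists share. Among TGF-beta response genes 0 of 13 passed, with a median of −0.16 with TNFα+IL1β, near the −0.13 of all probes. Of the 13 changes 9 were below 0, as were the changes of most probes of the array. The lowest p was that of TGFBI, a secreted matrix protein on a dim probe (mean −1.53), at −1.73 ± 0.59 (limma adjusted p = 0.274). TGFBI also had the lowest p of this list with TNFα (−1.64 ± 0.66, adjusted p = 0.660), where replicate 3 had no value. The matrix growth factor CCN2 (−0.37 ± 0.37) and the collagen COL1A1 (−0.23 ± 0.49), 2 standard TGF-beta response genes named after their values were seen, gave changes no larger than about their SE. Medians with TNFα+IL1β were 0.03 for 22 other ligands, 0.20 for 12 other receptors, 0.29 for 12 genes of latency and activation and −0.18 for 14 SMADs and SMAD regulators, with 0 called in each. With TNFα the lowest p among the other ligands was that of GDF10 (−0.82 ± 0.56, limma adjusted p = 0.838), on a dim probe (mean −3.15). Among the other antagonists it was that of NOG (−0.53 ± 0.29, 0.780), and among latency genes that of NRROS (0.88 ± 0.40, 0.710). With IL1β the lowest p among the other ligands was that of GDF3 (−0.60 ± 0.20, limma adjusted p = 0.440), on a dim probe (mean −2.50). Among the receptors it was that of the co-receptor TGFBR3 (−0.79 ± 0.31, 0.464), and among latency genes that of NRROS (0.52 ± 0.40, 0.709). Among BMP response genes it was that of the inhibitory SMAD6 (−0.83 ± 0.60, 0.689). Among TGF-beta response genes it was that of smooth muscle actin ACTA2 (−0.76 ± 0.57, 0.702). The dimmer ACTA2 probes 479004 and 222108 gave −0.98 ± 0.54 and 0.25 ± 0.35 with IL1β, so the 3 probes did not share a sign. With TNFα+IL1β the lowest p among the other ligands was that of INHBE (0.36 ± 0.17, adjusted p = 0.420), and among latency genes that of NRROS, which anchors latent TGF-beta (0.60 ± 0.40, adjusted p = 0.559).

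**Figure D4:**
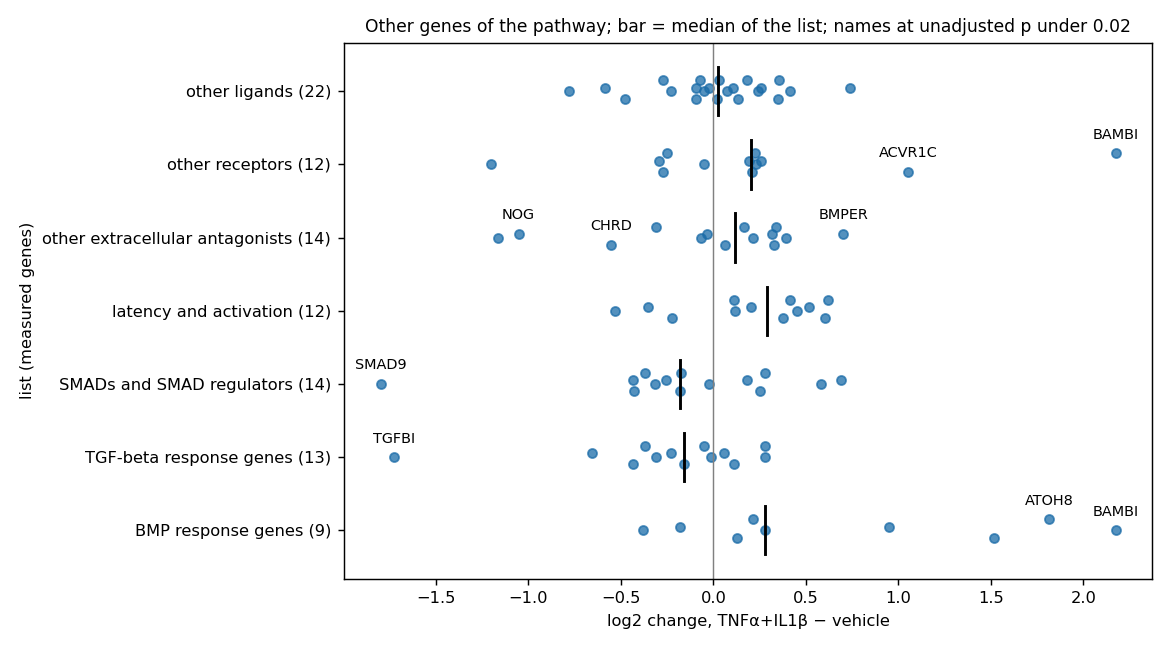
Log2 change with TNFα+IL1β against vehicle of each measured gene in 7 lists of other pathway genes, 1 point per gene, with bars at list medians and names for genes with an unadjusted p under 0.02. BAMBI (2.17) and SMAD9 (−1.80) lie furthest out, and no gene was called.

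Genes with the most similar pattern were found by Pearson correlation over the 12 arrays among 16995 genes with a value on every array. The 12 arrays share 4 treatments and the difference between the 3 arrays that stood apart and the rest. High values may therefore be common among all genes, which was not counted. TGFB1 was most like SPON2 (r = 0.983), SDC1 (0.974) and PPP2R3B (0.972). INHBA was most like CRELD2 (0.953), SUCO (0.945) and RELCH (0.939), and GREM1 most like DPY19L1 (0.976), HECW2 (0.955) and IFNAR1 (0.939). FST was most like LIMS2 (0.905), PPARG (0.904) and PYGL (0.899), and TGFBR2 most like ITPKB (0.968), CPOX (0.967) and NEIL2 (0.959). TGFB2 was most like HAUS3 (0.898), CHRNE (0.887) and C12orf50 (0.867), TGFB3 most like ESRP1 (0.927), LINC02092 (0.927) and CCDC174 (0.925), and TGFBR1 most like ATP8B1-AS1 (0.864), LPP (0.842) and LINC01842 (0.834).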

How the data were processed

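The authors deposited linear intensities of single-colour CodeLink arrays, 1 slide per culture per the labels. Array medians close to 1 are the only basis for taking the deposited intensity as median-scaled. For scanner software and background steps the sources used here give nothing. The code −9999 (0.716% of values) and values at or below 0 (1.10%) were set to missing before log2. Array medians differed by 0.05 (log2), under the limit of 0.1 set for further scaling. Testing required 2 or more measured arrays in each group. Of 23472 probes listed with 1 gene, 23434 were named by Entrez identifier.

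Group means of all 12 arrays were fitted with limma 3.58.1 in R 4.3.3, with 8 residual degrees of freedom and two-sided moderated tests adjusted over 53671 probes. With 3 arrays a group, the smallest two-sided p of an exact permutation test is 0.1. The fit was tested on simulated data with known changes. The number of arrays limits the precision of every change.

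Per the labels the replicate numbers mark the same passages in each group. Residuals of same-passage arrays correlated at 0.007 on average (−0.196 to 0.310, 18 pairs), against −0.003 for 36 pairs of different passages. As residuals were taken from group means, these averages are tied to each other, and the latter is not an independent baseline. The highest value, 0.310, was between vehicle replicate 3 and TNFα replicate 3, both arrays that stood apart. The protocols name no block, so the passage block was an alternative. The other alternatives were quantile normalization, adding 0.104 to each value before taking logs, leaving out dim probes, 1 probe per gene, array weights, a trended robust prior, the compared groups alone, no arrays that stood apart, and each array left out. The members, lists, tests and alternatives were chosen with earlier results of these data known. Every single-gene probe of the members was named. From each list, for the comparisons with vehicle, up to 4 called genes with the largest change were to be named or, with none called, the gene with the lowest p, and for likeness the 3 genes with the highest correlation, which are not given for BMP4. BMPER, ACVR1C and ATOH8 were named in a plot for their p.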

Additional observations from a re-analysis of the deposited data

Results flagged for a closer look

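For 2 of the 15 member probes the change from 1 cytokine pointed one way in every passage without the other cytokine. It pointed the opposite way in every passage with the other cytokine. The share of all probes with this pattern was not counted, so these 2 may be no more than that share. FST probe 225038 was lower with IL1β than with vehicle in all 3 passages and higher with TNFα+IL1β than with TNFα in all 3, a difference between the 2 changes of 0.82 ± 0.48 (SE). BMP4 was lower with TNFα than with vehicle and higher with TNFα+IL1β than with IL1β in all 3 passages, a difference of 1.66 ± 1.05, although the first was only −0.0011 in passage 28 and the second only 0.0033 in passage 15. Neither interaction was called (limma adjusted p = 1.00 for both). Without the 3 arrays that stood apart the differences were 1.11 ± 0.40 for FST probe 225038 and 0.82 ± 0.90 for BMP4 (limma adjusted p = 0.910 and 0.915). Groups of 3 arrays are too small for the check of single outlying samples.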

How the results depend on the processing

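Under 21 other settings 0 member probes were called, with a lowest adjusted p of 0.0829 (TGFB1, TNFα+IL1β against vehicle, without the 3 arrays that stood apart), and the replicate block by passage also left 0 called and changed no call. Calls of other pathway genes were a count added after the data were seen. For TNFα+IL1β against vehicle they went to 1 without dim probes (BAMBI) and to 4 with array weights (NOG, CHRD, SMAD9 and TGFBI). For TNFα+IL1β against IL1β they went to 1 with array weights (GDF3), and 0 passed otherwise. The probes of SMAD9, TGFBI and GDF3 were dim. Of 1311 recomputed changes of member probes 68 had the other sign. With array weights these were TGFBR2 probe 311078 (0.21) for TNFα, INHBA 409040 (−0.095), INHBA 26062 (0.042), GREM1 (−0.027), TGFBR1 79071 (−0.14), TGFBR1 366021 (−0.31) and TGFBR2 268029 (0.13) for IL1β, and TGFB2 (0.11), FST 225038 (−0.064), BMP4 (−0.043) and TGFBR1 79071 (−0.20) for TNFα+IL1β. Without the 3 arrays they were TGFB3 405046 (0.00039), INHBA 26062 (0.11) and TGFBR2 268029 (−0.096) for TNFα, INHBA 26062 (0.28), GREM1 (−0.21), TGFBR1 79071 (−0.32) and TGFBR1 366021 (−0.051) for IL1β, INHBA 26062 (0.14), FST 225038 (−0.14) and TGFBR1 79071 (−0.11) for TNFα+IL1β, FST 229090 (−0.073) for TNFα+IL1β over TNFα, and TGFB3 405046 (−0.060) and TGFBR1 79071 (0.22) for TNFα+IL1β over IL1β. Quantile normalization turned TGFB3 405046 (−0.012) for TNFα+IL1β over IL1β. Leaving out 1 array at a time turned 29 changes. For TNFα their ranges were −0.17 to 0.057 (TGFB3 405046), −0.37 to 0.16 (INHBA 26062), −1.37 to 0.072 (BMP4), −0.026 to 0.81 (GREM1), −0.49 to 0.061 and −0.58 to 0.18 (TGFBR1 79071 and 366021), and −0.55 to 0.51 and −0.29 to 0.48 (TGFBR2 311078 and 268029). For IL1β they were −1.20 to 0.042 (TGFB1), −0.054 to 0.81 and −0.37 to 0.15 (INHBA 409040 and 26062), −0.44 to 0.40 (GREM1), −0.072 to 0.72 and −0.10 to 0.38 (TGFBR1 79071 and 366021), and −0.76 to 0.30 and −0.58 to 0.20 (TGFBR2 311078 and 268029). For TNFα+IL1β they were −0.11 to 0.19 (TGFB2), −0.38 to 0.14 (INHBA 26062), −0.14 to 0.44 (FST 225038), −0.30 to 0.77 (BMP4), −0.11 to 0.39 (TGFBR1 79071), and −0.82 to 0.24 and −0.51 to 0.27 (TGFBR2 311078 and 268029). For TNFα+IL1β over TNFα they were −0.073 to 0.21 (FST 229090) and −0.59 to 0.039 (TGFBR2 311078), and over IL1β −0.060 to 0.11 (TGFB3 405046), −0.00097 to 0.56 (FST 229090), −0.57 to 0.22 (TGFBR1 79071) and −0.43 to 0.14 (TGFBR2 311078). The cause was not tested. Both bright and dim probes were among them.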

Other observations

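The log2 signal of INHBA probe 409040 minus that of FST probe 229090 was taken on each array, a pair chosen after their values were seen and given with no test. It was 2.02, 1.16 and 1.61 with TNFα, 1.26, 1.22 and 2.58 with IL1β and 1.83, 1.83 and 1.79 with TNFα+IL1β, against 0.52, 0.91 and −0.08 with vehicle. Every cytokine array was above the 3 vehicle arrays, also with INHBA probe 502110 in place of the first (0.32 to 1.70, against −0.46 to −0.07). The share of other probe pairs separated in this way was not counted. With FST probe 225038 in place of the bright one the values were 5.54 to 6.15 with TNFα, 5.50, 5.46 and 6.60 with IL1β and 5.82, 5.76 and 5.52 with TNFα+IL1β, against 4.78, 5.53 and 4.97 with vehicle. The IL1β and TNFα+IL1β groups overlapped with vehicle. For TNFα the lowest value (5.536) was barely above the highest vehicle value (5.528), both of replicate 2. With the dimmer INHBA probe 26062 and FST probe 229090 the cytokine arrays were not separated from vehicle. All were above vehicle replicates 1 and 2. But every TNFα and TNFα+IL1β array was below vehicle replicate 3, and of the IL1β arrays only replicate 3 was above it. On TNFα replicate 2 this INHBA probe was lower and the FST probe higher (2.07 and 6.42) than on vehicle replicate 3 (2.93 and 6.27). A ratio within an array shows that the 2 probes of a pair differed unequally between groups and not which of them moved.

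The spread between replicates was itself uneven. The TNFα+IL1β group had the smallest SD of the 4 groups for 12 of the 15 member probes and for 50.2% of all probes, and the vehicle group for 0 of 15 and 11.1%. The median SD over all probes was 0.332 with TNFα, 0.332 with IL1β and 0.176 with TNFα+IL1β, against 0.528 with vehicle. None of the 3 arrays that stood apart was a TNFα+IL1β array.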
